A study of Mus musculus with 12 samples.

Results

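Lectins and scavenger receptors of resident macrophages were examined in isolated fat cells: Cd209a, Cd209d, Cd209f, Cd209g, Mrc1, Clec10a, Cd163, Timd4, Folr2 and Lyve1. These 10 genes, of 24541 gene symbols in the deposited table, were chosen by symbol, and the estimated reads of their 14 transcripts were summed per symbol. The libraries are poly-A RNA-seq of primary adipocytes from epididymal fat, the visceral fat pad beside the testis, of C57BL/6N mice. There were 4 groups of 3 libraries: 18-month-old mice with an adipocyte-specific knockout of Crtc2 (old AKO), 18-month-old mice labelled WT (old WT), and the same genotypes at 3 months (young AKO and young WT). Crtc2 encodes a coactivator of the cyclic AMP-responsive factor CREB. The sample titles give the WT animals as Crtc2 f/f, a floxed but undeleted allele, so that WT here is not a mouse without loxP sites. The Cre line and the fate of the floxed allele in cells other than adipocytes are not given in the sources used here, nor is it stated that each library came from a different mouse. P-values therefore measure only the spread between libraries, which may in part be technical.

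The libraries held 45935795 to 61125366 estimated reads each. Crtc2 went against its label: it had 151, 161 and 154 CPM in the libraries labelled old AKO, against 45.3, 51.6 and 49.97 CPM in old WT, and 164, 300 and 280 CPM in those labelled young AKO, against 53.9, 67.2 and 79.4 CPM in young WT. Genotypes are therefore named below as the labels give them, and every genotype direction rests on those labels. CPM, the usual depth-scaled unit, were computed from the summed reads with TMM-scaled library sizes. The preparations held adipocyte RNA: 12 adipocyte markers (Adipoq, Plin1, Fabp4 and others) summed to 58605 to 62424 CPM in old AKO, 37388 to 48144 CPM in old WT, 56108 to 79681 CPM in young AKO and 65755 to 73660 CPM in young WT. Macrophage RNA was present as well. A list of 16 general macrophage genes, labelled pan-macrophage in the plots (Csf1r, Adgre1, Cd68 and others) summed to 199 to 274 CPM in old AKO, 596 to 3542 CPM in old WT, 131 to 199 CPM in young AKO and 219 to 307 CPM in young WT. Old WT replicate 3 had the highest of these sums and stood apart on the first principal component of all genes, with a score of 99.9 against 68.5 and 64.7 for replicates 1 and 2. Young WT replicate 1 stood apart from its group on the second component, at 21.5 against -44.3 and -41.4.

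Resident macrophages of fat clear dying cells, haemoglobin, glycoproteins and matrix fragments through surface receptors that bind these ligands and carry them into lysosomes. C-type lectins such as the mannose receptor and the CD209 family bind sugar chains. Cd163 is the receptor for haemoglobin bound to haptoglobin, Timd4 tethers dying cells through phosphatidylserine, Folr2 is folate receptor beta, and Lyve1 binds hyaluronan. In mouse tissues these genes are used as marks of tissue-resident macrophages, in contrast to the lipid-associated macrophages that gather around dying fat cells. Lyve1 also marks lymphatic endothelium and Cd209a also marks dendritic cells. Adipocytes are not known as a main source of any of them.

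The 4 Cd209 members lie within 394 kb of mouse chromosome 8, and their sequences upstream of the transcript start are shown because the members move together across the groups below. The windows are the 250 bases before each start in RefSeq's table (GRCm38.p6), 5′ to 3′ on the gene's strand. Capitals mark GGAAGT (the core bound by ETS factors such as PU.1), TGCTGA (the core of MAF elements) and TATAAA (the TATA box), each in either orientation. They are at chr8:4105765-4106014 on the minus strand for Cd209f, chr8:4134486-4134735 on the plus strand for Cd209g, chr8:3878500-3878749 on the minus strand for Cd209d and chr8:3748985-3749234 on the minus strand for Cd209a.
Cd209f: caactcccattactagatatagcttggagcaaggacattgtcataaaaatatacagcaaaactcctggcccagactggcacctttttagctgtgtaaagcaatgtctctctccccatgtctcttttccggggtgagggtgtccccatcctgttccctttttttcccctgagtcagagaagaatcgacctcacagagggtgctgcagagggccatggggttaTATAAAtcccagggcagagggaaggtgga
Cd209g: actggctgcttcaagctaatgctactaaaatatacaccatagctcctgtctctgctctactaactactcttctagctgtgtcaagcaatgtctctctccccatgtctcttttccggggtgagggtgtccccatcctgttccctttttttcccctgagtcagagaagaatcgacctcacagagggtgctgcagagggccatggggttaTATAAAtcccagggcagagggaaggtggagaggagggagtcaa
Cd209d: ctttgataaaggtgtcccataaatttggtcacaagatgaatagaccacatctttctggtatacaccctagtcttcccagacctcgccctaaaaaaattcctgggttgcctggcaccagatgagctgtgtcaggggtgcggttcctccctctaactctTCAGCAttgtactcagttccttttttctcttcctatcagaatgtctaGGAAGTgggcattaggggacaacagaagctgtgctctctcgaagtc
Cd209a: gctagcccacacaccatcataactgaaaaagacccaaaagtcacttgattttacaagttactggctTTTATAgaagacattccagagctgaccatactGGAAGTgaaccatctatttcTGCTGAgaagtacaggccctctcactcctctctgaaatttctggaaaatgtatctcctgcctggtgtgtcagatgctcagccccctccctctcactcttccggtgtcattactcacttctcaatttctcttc

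The Cd209f and Cd209g windows are near copies: 90.5% of 231 aligned bases are identical, with an unbroken identical run of 154 bases, and both hold TATAAA on the gene's strand, at 29 bases before the start in Cd209f and 43 bases before it in Cd209g. All other pairs among Cd209a to Cd209g were 52.9% to 69.5% identical, with no identical run over 12 bases. Cd209d holds GGAAGT at 46 bases before the start and TGCTGA on the opposite strand at 93 bases. Cd209a holds GGAAGT at 152 bases and TGCTGA at 132 bases before the start, and TATAAA on the opposite strand at 184 bases. Of the members, 8 are in the promoter table, in 9 windows. These windows are not separate: Folr2 is counted at each of its starts, and the Cd209f and Cd209g windows are near copies. The upstream start of Folr2 belongs to a transcript with 0.0683% of its reads. GGAAGT was in 5 of the 9 windows and in 19.7% of all 32851 promoters, TGCTGA in 5 of 9 and in 16.1%, and TATAAA in 3 of 9 and in 12.4%. TGACG, the half-site of the cyclic AMP response element, was in 0 of 9 windows and in 17.8% of all promoters. A match is a match of letters and no measured binding site.

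The likeness reaches the transcripts, and it limits what the reads can separate. Of the 50-base words of Cd209f transcripts 29.8% also occur in Cd209g, and of those of Cd209g 16.6% occur in Cd209f. Of the words of Clec10a 9.02% occur elsewhere, mostly in its neighbour and paralogue Mgl2. Of those of Folr2 52.6% also occur in Gm10602 when both strands are searched. The strand of these matches was not recorded, and whether counting used strand is not given in the sources used here. These shares are of the words of all annotated transcripts of a gene, 2168 words for Cd209f and 3890 for Cd209g, of which 646 are shared. The transcripts counted here have 1109 and 1085 bases, and the shares within them were not computed. The levels of Cd209f, Cd209g, Clec10a and Folr2 are therefore uncertain to an extent that these shares may understate. Cd209a, Cd209d, Mrc1, Timd4 and Lyve1 share no such word with another gene.

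All 10 members were higher in old than in young libraries of the same genotype, and all 10 had lower fitted levels in libraries labelled AKO than in WT at both ages. Their summed level was 135 to 167 CPM in old AKO, 279 to 533 CPM in old WT, 46.8 to 62.1 CPM in young AKO and 68.7 to 98.2 CPM in young WT. The groups did not overlap in this sum. In bulk RNA fewer cells of a type and less RNA per cell cannot be told apart.

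**Figure D1:**
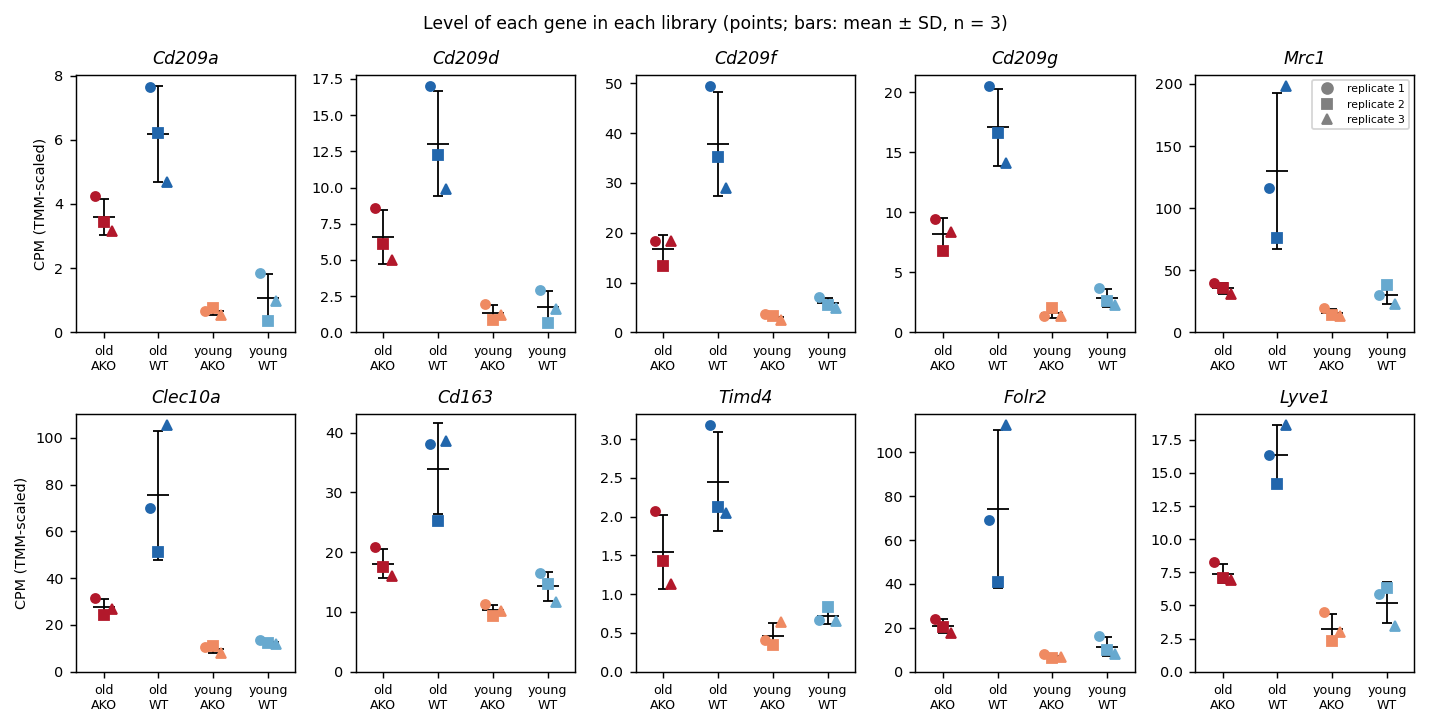
Level of each of the 10 genes in CPM (linear axis from 0) in each of the 3 libraries of old AKO, old WT, young AKO and young WT. Points are libraries, horizontal marks are group means and bars are SDs (n = 3). Old libraries sit above young ones of the same genotype for every gene, and old WT replicate 3 reaches 198 CPM for Mrc1 and 112 CPM for Folr2.

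Per transcript length, Folr2 and Clec10a had the highest levels of the members in every group and Timd4 the lowest. In old AKO libraries the mean FPKM, which scales reads by depth and transcript length, was 19.4 ± 3.28 for Folr2, 18.5 ± 2.84 for Clec10a and 15.1 ± 2.66 for Cd209f (SD, n = 3), and these 3 neighbours overlapped. Cd209d (7.67), Cd209g (7.61) and Mrc1 (6.75) followed and overlapped one another, then Cd163 (4.11), Lyve1 (2.86), Cd209a (2.44) and Timd4 (0.712). In old WT the order was Folr2 (73.2 ± 36.4 FPKM), Clec10a (53.8 ± 20.3), Cd209f (36.3 ± 9.56), Mrc1 (26.1 ± 12.9), Cd209g (16.7 ± 2.95), Cd209d (16.04 ± 4.25), Cd163 (8.15 ± 1.84), Lyve1 (6.69 ± 0.988), Cd209a (4.42 ± 1.01) and Timd4 (1.19 ± 0.300). From Folr2 down to Cd209d each of these overlapped its neighbour. In young AKO, Clec10a (5.93 ± 1.09 FPKM) and Folr2 (5.90 ± 0.898) stood above Mrc1 (2.65 ± 0.639) and Cd209f (2.57 ± 0.538), and in young WT Folr2 (10.2 ± 3.73) and Clec10a (8.15 ± 0.532) stood above Mrc1 (5.54 ± 1.49) and Cd209f (5.08 ± 1.03). The libraries of Cd209f and Mrc1 overlapped in every group but old AKO, where Cd209f was higher. The 4 Cd209 genes made up 36.2% to 40.6% of the members' summed FPKM in old AKO and 37.2%, 40.0% and 19.1% in old WT replicates 1, 2 and 3, against 22.9% to 25.0% in young AKO and 21.4% to 28.8% in young WT. The share was higher in every old library than in every young one, except in old WT replicate 3, where it was lower than in any other library.

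The CD209 lectins bind mannose- and fucose-rich glycans, and Cd209f was the highest of the 4 members. In libraries 1, 2 and 3 of each group, Cd209f had 18.3, 13.4 and 18.3 CPM in old AKO and 49.4, 35.1 and 29.1 CPM in old WT. It had 3.70, 3.30 and 2.48 CPM in young AKO and 7.11, 5.56 and 4.82 CPM in young WT. Every AKO library was below every WT library of its age, and every old library above every young one. The log2 fold change of old AKO against old WT was -1.18 ± 0.23 (± SE; adjusted p = 0.0191), and that of young AKO against young WT was -0.88 ± 0.24 (adjusted p = 0.0799). With age Cd209f was 5.28-fold higher in AKO (log2 2.40 ± 0.24, adjusted p = 0.000597) and 6.499-fold higher in WT (2.70 ± 0.24, adjusted p = 0.000445).

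Its near copy Cd209g had 9.44, 6.81 and 8.36 CPM in old AKO and 20.5, 16.6 and 14.1 CPM in old WT. Young AKO libraries had 1.38, 2.06 and 1.34 CPM and young WT libraries 3.74, 2.58 and 2.28 CPM of Cd209g. The 4 groups did not overlap. Cd209g was lower in old AKO than in old WT by a log2 fold change of -1.06 ± 0.23 (adjusted p = 0.0266), and in the young mice the value was -0.85 ± 0.25 (adjusted p = 0.0984). It rose with age in AKO by 2.36 ± 0.25 (adjusted p = 0.000749) and in WT by 2.58 ± 0.25 (adjusted p = 0.000461).

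Cd209d and Cd209a were lower in level and wider in spread. Cd209d had 8.62, 6.12 and 4.98 CPM in old AKO and 17.0, 12.3 and 9.87 CPM in old WT, against 1.93, 0.860 and 1.23 CPM in young AKO and 2.95, 0.659 and 1.59 CPM in young WT. Cd209a had 4.24, 3.43 and 3.15 CPM in old AKO and 7.65, 6.20 and 4.68 CPM in old WT, against 0.656, 0.760 and 0.551 CPM in young AKO and 1.85, 0.339 and 0.989 CPM in young WT. For both genes the old AKO libraries lay below all old WT libraries, the young groups overlapped, and young WT replicate 2 was the lowest library of all. Old AKO against old WT was -0.99 ± 0.45 for Cd209d (adjusted p = 0.230) and -0.78 ± 0.43 for Cd209a (adjusted p = 0.323), both short of the threshold of 0.05. Both rose with age: Cd209d by 2.30 ± 0.48 in AKO (adjusted p = 0.0128) and 2.91 ± 0.49 in WT (adjusted p = 0.00512), and Cd209a by 2.46 ± 0.47 in AKO (adjusted p = 0.00886) and 2.55 ± 0.46 in WT (adjusted p = 0.00623).

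Mrc1 encodes the mannose receptor, which clears glycoproteins and collagen fragments. Old AKO libraries had 40.0, 35.7 and 31.2 CPM of Mrc1, against 116, 75.7 and 198 CPM in old WT. Young AKO libraries had 19.7, 14.2 and 12.8 CPM and young WT libraries 29.8, 38.4 and 23.1 CPM. AKO and WT did not overlap at either age, and the old AKO libraries overlapped the young WT ones. The level in old AKO was 0.274 times that in old WT (log2 -1.87 ± 0.32, adjusted p = 0.0189), the lowest ratio among the members. In young mice the log2 fold change was -0.97 ± 0.32 (adjusted p = 0.127). Mrc1 rose with age by 1.19 ± 0.32 in AKO (adjusted p = 0.0278) and by 2.09 ± 0.32 in WT (adjusted p = 0.00415).

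Clec10a, a lectin for galactose and N-acetylgalactosamine, had 31.6, 24.1 and 26.8 CPM in old AKO and 70.1, 51.0 and 105 CPM in old WT. It had 10.4, 11.2 and 7.99 CPM in young AKO and 13.6, 12.4 and 12.04 CPM in young WT. The groups did not overlap, and the young genotypes lay close together. Clec10a was lower in old AKO than in old WT (log2 -1.46 ± 0.23, adjusted p = 0.0189), with -0.36 ± 0.23 in the young mice (adjusted p = 0.423). It rose with age by 1.48 ± 0.23 in AKO (adjusted p = 0.00453) and by 2.58 ± 0.24 in WT (adjusted p = 0.000445). Its 2 annotated transcripts took 51.7% to 66.7% and 33.3% to 48.3% of its reads in old AKO and 48.8% to 59.9% and 40.1% to 51.2% in old WT, ranges that overlapped.

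Cd163, the haemoglobin scavenger receptor, had 20.8, 17.5 and 16.01 CPM in old AKO and 38.1, 25.3 and 38.6 CPM in old WT. It had 11.3, 9.36 and 10.1 CPM in young AKO and 16.5, 14.7 and 11.7 CPM in young WT. AKO lay below WT at each age without overlap. Cd163 showed the smallest age differences of the members, 0.82 ± 0.18 in AKO (adjusted p = 0.0158) and 1.25 ± 0.18 in WT (adjusted p = 0.00378). Old AKO against old WT was -0.91 ± 0.18 (adjusted p = 0.0208) and young AKO against young WT -0.48 ± 0.18 (adjusted p = 0.179).

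Folr2, the folate receptor, had 24.1, 20.4 and 17.8 CPM in old AKO and 69.1, 40.8 and 112 CPM in old WT. It had 8.28, 6.30 and 6.65 CPM in young AKO and 16.1, 9.94 and 8.08 CPM in young WT. The old groups were far apart, and the young groups overlapped at their edges. Folr2 was lower in old AKO than in old WT (log2 -1.83 ± 0.34, adjusted p = 0.0189), with -0.69 ± 0.34 in young mice (adjusted p = 0.298). It rose with age by 1.55 ± 0.35 in AKO (adjusted p = 0.0155) and by 2.70 ± 0.36 in WT (adjusted p = 0.00214).

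Lyve1, the hyaluronan receptor, had 8.26, 7.05 and 6.90 CPM in old AKO and 16.4, 14.1 and 18.6 CPM in old WT, against 4.47, 2.28 and 3.01 CPM in young AKO and 5.87, 6.31 and 3.42 CPM in young WT. The old groups did not overlap and the young ones did. Lyve1 fell in old AKO against old WT (log2 -1.15 ± 0.26, adjusted p = 0.0316) and rose with age by 1.19 ± 0.27 in AKO (adjusted p = 0.0168) and 1.66 ± 0.27 in WT (adjusted p = 0.00472). In the young mice the genotype difference of Lyve1 was -0.68 ± 0.27 (adjusted p = 0.196). Among 9 lymphatic endothelial markers Ccl21a had 0 reads in every library and Prox1, the defining transcription factor, had 0 reads in old AKO and young AKO and averaged 0.0669 CPM in old WT and 0.0249 CPM in young WT. The list summed to 42.3 to 61.4 CPM in old AKO, 85.2 to 108 CPM in old WT, 21.8 to 33.6 CPM in young AKO and 35.0 to 67.6 CPM in young WT. Of its 6 tested genes, 2 were lower in old AKO than in old WT (Nrp2 and Pdpn). With age 4 were higher in AKO (Pdpn, Reln, Nrp2 and Mmrn1) and 2 in WT (Pdpn and Nrp2). All 6 had values below 0 in AKO against WT at both ages, and above 0 with age in both genotypes. These are the directions of the members. Their part in the Lyve1 values was not tested.

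Timd4, the phosphatidylserine receptor, was the scarcest member. It had 2.07, 1.43 and 1.13 CPM in old AKO and 3.18, 2.13 and 2.04 CPM in old WT, against 0.402, 0.340 and 0.643 CPM in young AKO and 0.663, 0.829 and 0.653 CPM in young WT. Old AKO replicate 1 reached into the old WT range, while the young groups were apart by a narrow margin. Its genotype differences of -0.67 ± 0.32 in old mice (adjusted p = 0.255) and -0.62 ± 0.34 in young mice (adjusted p = 0.349) did not pass the threshold. Timd4 rose with age by 1.73 ± 0.34 in AKO (adjusted p = 0.00997) and by 1.77 ± 0.33 in WT (adjusted p = 0.00675).

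Across the members, 7 of 10 were lower in old AKO than in old WT at an adjusted p under 0.05 and 0 were higher, where 5.16% of all 15068 genes tested were lower. The exceptions were Cd209a, Cd209d and Timd4. Cd209f and Cd209g, both among the 7, share part of their sequence, so their calls may not be separate. The median log2 fold change of the 10 was -1.10, against -0.01 for all genes, and 9 of 10 had old AKO libraries all below old WT libraries, as did 20.3% of all genes. These calls did not hold under several other fits. With only the old groups fitted 1 of the 7, Lyve1, passed, the other 6 having adjusted p of 0.0514 to 0.0598, and 0.866% of all genes were called lower. Without old AKO replicate 1, 2 or 3 none of the 10 passed by edgeR, with adjusted p of 0.0674 to 0.147 for the 7 genes. Those 3 fits called 0.0459%, 0.0131% and 0.013% of all genes lower, so calls were lost among all genes. Without old WT replicate 1 there were 4 calls, where 4.05% of all genes were lower. Cd209g, Cd163 and Lyve1 were lost there at adjusted p of 0.0612 to 0.0871. Without old WT replicate 3, which stood apart, 5 remained past the threshold, where 2.39% of all genes were lower. Cd163 was at 0.0700 and Lyve1 at 0.112 there, and the median was -1.14. All 10 fitted differences stayed below 0 in each of these fits. Markers of other cells differed as well: 4 of 10 progenitor and fibroblast genes were lower in old AKO than in old WT (median -0.90) and 1 of 12 adipocyte genes was higher (median 0.53), while 12 of 12 blood endothelial genes had values below 0 (median -0.51) with none past the threshold by edgeR. Their part in the members' difference was not tested.

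**Figure D2:**
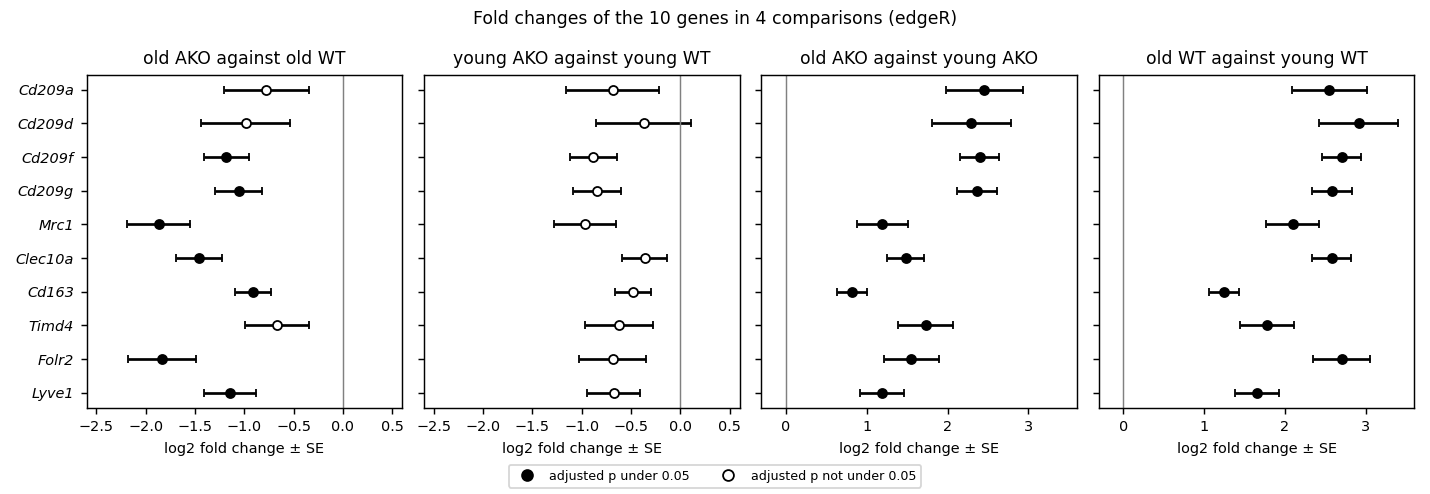
Fitted log2 fold change (x axis) with its standard error (bars) of each of the 10 genes in 4 comparisons: old AKO against old WT, young AKO against young WT, old AKO against young AKO and old WT against young WT. Filled points passed an adjusted p of 0.05: 7 in old AKO against old WT, 0 in young AKO against young WT and 10 in each comparison with age.

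In young mice 0 of 10 members passed in young AKO against young WT by edgeR, where 0.976% of all genes passed in either direction. Of the 10, 5 had an unadjusted p under 0.05 (Cd209f, Cd209g, Mrc1, Cd163 and Lyve1), against 19.5% of all genes, and all 10 fitted values were below 0, with a median of -0.68 against 0.01 for all genes. By DESeq2, which called 6.25% of all genes lower and 2.81% higher here, 3 members passed, all lower: Cd209f (adjusted p = 0.00922), Cd209g (adjusted p = 0.0186) and Mrc1 (adjusted p = 0.0324). The groups did not overlap for 6 of the 10, lower in AKO each time, as for 11% of all genes. Of the 10 progenitor and fibroblast genes 2 were lower in young AKO than in young WT (median -1.16), and all 12 blood endothelial genes had values below 0 (median -0.97) with none past the threshold by edgeR. Their part here was not tested. The difference between the genotype effects at the 2 ages was tested itself, and 0 of 10 members passed by edgeR and by DESeq2, with 0.00664% of all genes (1 gene) past the threshold by edgeR. The values closest to it were Clec10a (old minus young -1.09 ± 0.32, adjusted p = 0.507) and Folr2 (-1.15 ± 0.48, adjusted p = 0.518), the only members with an unadjusted p under 0.05, as 9.35% of all genes had.

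With age all 10 members were higher in AKO, where 10.4% of all genes were called higher, and all 10 were higher in WT, where 14.2% were. The old and young libraries did not overlap for any member in either genotype, as for 23.9% of all genes in AKO and 23% in WT in that direction. The median log2 fold change was 1.64 in AKO and 2.56 in WT, against -0.01 and 0.03 for all genes. The Cd209 genes had the highest values in AKO, 2.30 to 2.46, while in WT their values of 2.55 to 2.91 were matched by Clec10a and Folr2. In AKO without young AKO replicate 3, or without old AKO replicate 1, 5 of 10 remained past the threshold, the other 5 (Cd209d, Mrc1, Cd163, Folr2 and Lyve1) having adjusted p of 0.0532 to 0.102. Those fits called 3.98% and 3.69% of all genes higher. Mrc1 alone was lost without young AKO replicate 2 (adjusted p = 0.0700) or old AKO replicate 2 (adjusted p = 0.0668), where 7.42% and 5.57% of all genes were higher. In WT all 10 passed in every alternative fit, where 4.76% to 22.8% of all genes were called higher. The genotype and age comparisons share their libraries and are not independent of one another.

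Within old WT the members differed in where replicate 3 lay. That library had the highest level of Mrc1, Folr2, Clec10a, Cd163 and Lyve1 in its group, and the lowest of Cd209a, Cd209d, Cd209f, Cd209g and Timd4. On the log2 scale Mrc1 deviated from its group mean by -0.05, -0.67 and 0.72 in replicates 1, 2 and 3, and Folr2 by 0.02, -0.74 and 0.72. Cd209f deviated by 0.42, -0.07 and -0.35 and Cd209d by 0.42, -0.05 and -0.36. Cd163 deviated by 0.19, -0.40 and 0.21, so that it was nearly as high in replicate 1. The general macrophage genes moved more than any member: their mean log2 CPM was 5.18, 4.53 and 6.86 in the 3 libraries. Over all 12 libraries the 45 pairs of members had Pearson r of 0.74 to 0.99. The highest was that of Cd209f and Cd209g, which share 50-base words, and the part of shared reads in it was not tested. Over deviations from the group means, r was 0.31 to 0.90 among Mrc1, Folr2, Clec10a, Cd163 and Lyve1, 0.31 to 0.84 among the Cd209 genes and -0.33 to 0.36 between these sets. Timd4 is in neither set: its r was -0.10 to 0.18 with the Cd209 genes and -0.19 to 0.42 with the other set. These r describe 12 libraries that share depth and cell makeup, and the sets were drawn after the values were seen.

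**Figure D3:**
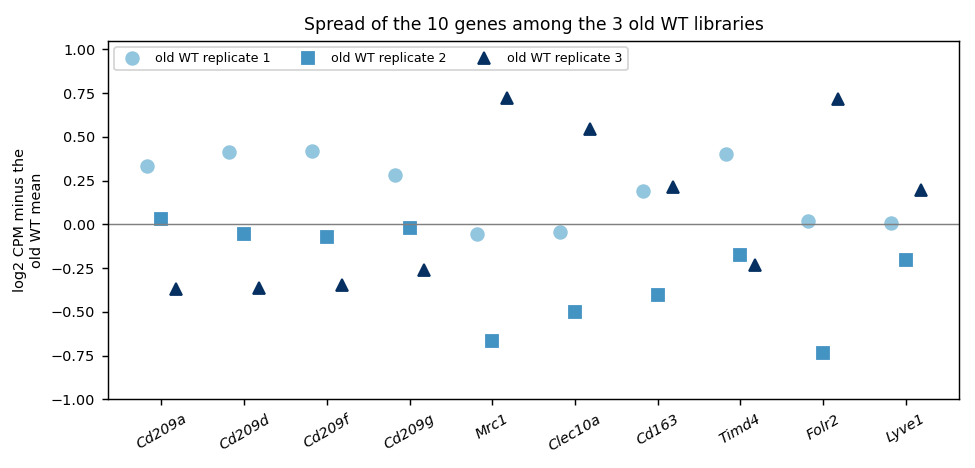
Log2 deviation of each of the 10 genes from its old WT mean (y axis) in the 3 old WT libraries. Replicate 3 lies above the mean for Mrc1 (0.72), Folr2, Clec10a, Cd163 and Lyve1, and below it for the 4 Cd209 genes and Timd4 (-0.23).

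The members were next set against the general macrophage genes. The 16 general genes had a median log2 fold change of -2.68 in old AKO against old WT, with 15 lower, and of -0.94 in young AKO against young WT, with 0 called. Their mean log2 CPM was 3.28, 3.40 and 2.96 in old AKO and 5.18, 4.53 and 6.86 in old WT, so old WT replicate 3 widened that difference. With age the general genes had a median of 0.95 in AKO, with 2 higher, and 2.64 in WT, with 15 higher. The log2 ratio of Mrc1 to their mean was 2.04, 1.76 and 2.0 in old AKO, 1.67, 1.71 and 0.77 in old WT, 1.75, 1.48 and 1.70 in young AKO and 1.66, 1.73 and 1.73 in young WT, so that old WT replicate 3 alone stood apart. The log2 ratio of Cd209f was 0.92, 0.35 and 1.24 in old AKO, 0.44, 0.60 and -2.0 in old WT, -0.65, -0.61 and -0.66 in young AKO and -0.40, -1.05 and -0.53 in young WT. Every old library but old WT replicate 3 was above every young library. For Cd163 the ratio was 1.10, 0.73 and 1.04 in old AKO, 0.07, 0.13 and -1.59 in old WT, 0.95, 0.88 and 1.35 in young AKO and 0.81, 0.35 and 0.75 in young WT, lowest in old WT.

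**Figure D4:**
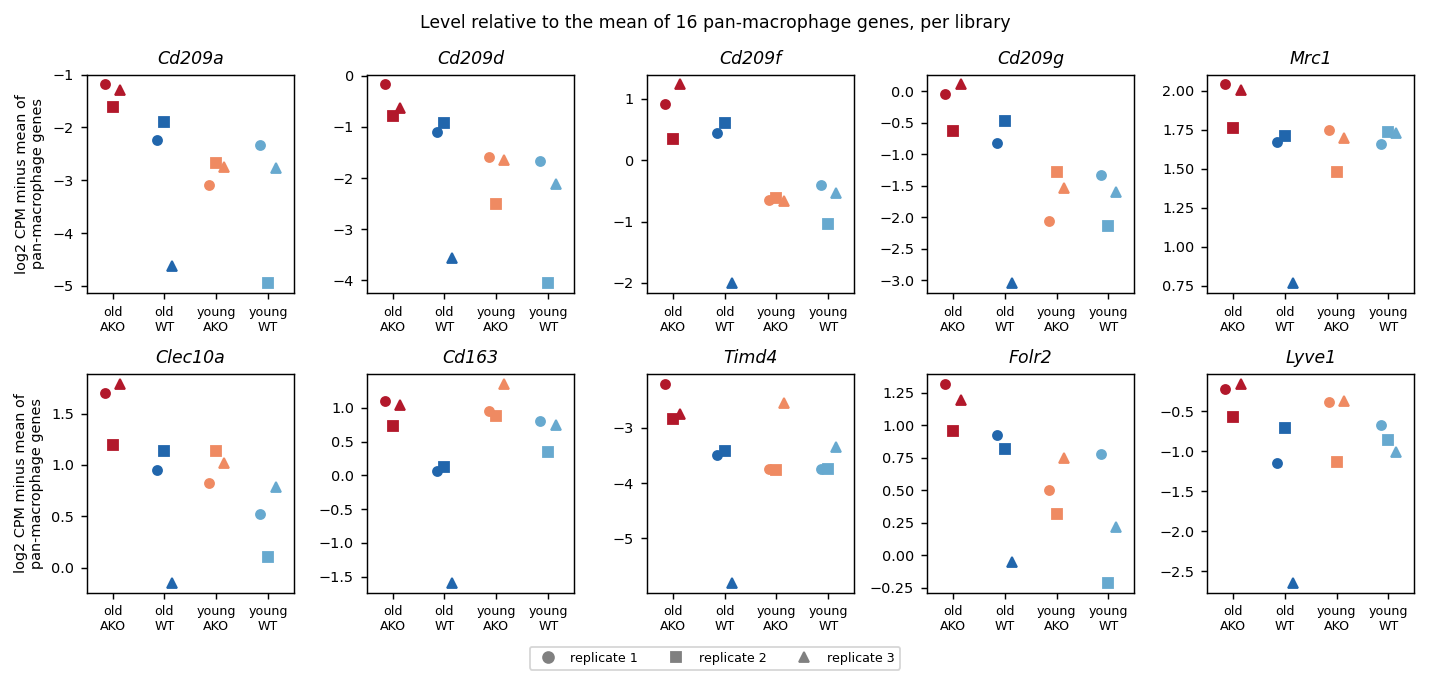
Log2 ratio of each of the 10 genes to the mean log2 CPM of 16 general macrophage genes (y axis), per library, in old AKO, old WT, young AKO and young WT. Old WT replicate 3 is the lowest old WT library for every gene, at 0.77 for Mrc1 and -2.0 for Cd209f.

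When library sizes were set by the 16 general macrophage genes, the members' differences became smaller or changed sign. In old AKO against old WT all 10 values were above 0, with a median of 0.95, and 1 was called, Cd163 (1.25 ± 0.54, adjusted p = 0.0257), in a fit that called 85.1% of all genes higher. The median of all genes in that fit was 2.04. In AKO with age 0 of 10 were called relative to these genes (median 0.69, against -0.93 for all genes). Of all genes 2.55% were called there, 0.73% higher and 1.82% lower. In WT with age 0 of 10 were called (median 0.28, against -2.06 for all genes). Of all genes 79.8% were called there, 0.458% higher and 79.4% lower. In young AKO against young WT 0 of 10 were called (median 0.23), where 0.405% of all genes were called. Standard errors of the members in these 4 comparisons were 0.53 to 0.70. Without old WT replicate 3 the 4 Cd209 genes were called higher with age in AKO relative to general macrophage genes, in a fit that called 3.45% of all genes higher and 58.7% lower, Cd209f by 1.53 (adjusted p = 0.00162), Cd209g by 1.46 (adjusted p = 0.00350), Cd209a by 1.54 (adjusted p = 0.00925) and Cd209d by 1.38 (adjusted p = 0.00961). Without it Cd209d (1.33, adjusted p = 0.0111), Cd209f (1.16, adjusted p = 0.00266) and Cd209g (1.03, adjusted p = 0.0158) were called higher with age in WT as well, where 0.680% of all genes were called higher and 74.7% lower. In old AKO against old WT, leaving out old WT replicate 3 lowered the members' median to 0.52 (0.25 to 0.88). There 1 member was called, in a fit that called 79.2% of all genes higher. Without old WT replicate 2 instead, 8 members were called higher relative to the general macrophage genes in old AKO against old WT, all but Mrc1 and Folr2. That fit called 89.6% of all genes higher, so the count was near that of all genes. The interaction of age and genotype relative to these genes called 0 of 10 members, with 0.338% of all genes called. The part of other cells' markers in these values was not tested.

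Other lectins and scavenger receptors were counted in the same fits. The lists share some genes, such as Stab1, Mgl2, Vsig4 and Cd68, so their counts are not separate. Of 25 further C-type lectins of myeloid cells 21 could be tested: 10 were lower in old AKO than in old WT (median -1.21), 9 were higher with age in AKO (1.15) and 15 in WT (2.26), and 0 were called between the young groups. Mgl2, the paralogue of Clec10a, was lower in old AKO (-1.21 ± 0.23, adjusted p = 0.0189), and the fungal receptors Clec4e (-3.11 ± 0.51, adjusted p = 0.0189) and Clec7a (-3.06 ± 0.57, adjusted p = 0.0189) had values below those of every member. Cd209b, the neighbouring family gene known from marginal zone macrophages of the spleen, rose with age by 2.18 ± 0.32 in AKO (adjusted p = 0.00364) and 2.74 ± 0.33 in WT (adjusted p = 0.00142).

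Of 22 other scavenger receptors 4 were lower in old AKO than in old WT (median -1.04), 7 were higher with age in AKO (0.56) and 10 in WT (1.14), and 0 were called between the young groups. Stab1, an endocytic receptor of resident macrophages and sinusoidal endothelium, was lower in old AKO (-1.48 ± 0.26, adjusted p = 0.0189), as was the class A scavenger receptor Msr1 (-2.90 ± 0.54, adjusted p = 0.0189). Vsig4, a complement receptor of resident macrophages, rose with age by 2.65 ± 0.49 in AKO (adjusted p = 0.00757) and 3.86 ± 0.49 in WT (adjusted p = 0.00177). Of 16 tested receptors and bridging molecules for dying cells 4 were lower in old AKO than in old WT, and 3 in AKO and 7 in WT were higher with age. Of 15 haem and iron genes 1 was lower in old AKO, the lysosomal metal transporter Slc11a1 (-2.23 ± 0.51, adjusted p = 0.0297), 0 were higher with age in AKO and 4 in WT. Of 23 other resident macrophage genes 8 were lower in old AKO than in old WT (median -0.91), and 9 in AKO and 13 in WT were higher with age (medians 0.53 and 1.31). They include the carbonyl reductase Cbr2, at -1.05 ± 0.12 in old AKO against old WT (adjusted p = 0.00906), and the transglutaminase subunit F13a1, at -1.26 ± 0.20 (adjusted p = 0.0189). Of 15 tested growth factor and alternative activation genes 4 were lower in old AKO than in old WT, and 6 in AKO and 8 in WT were higher with age.

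Lipid-associated macrophage genes are known from macrophages around dying fat cells. Of 12, 6 were lower in old AKO than in old WT (median -3.01) and 8 were higher with age in WT (median 2.44), but in AKO 1 was higher with age, the tetraspanin gene Cd9 (2.05 ± 0.42, adjusted p = 0.0113), with a median of 0.22. Their summed level was 1253 to 1408 CPM in old AKO, 1622 to 6072 CPM in old WT, 1139 to 1432 CPM in young AKO and 972 to 1575 CPM in young WT. No test of the members against this list was made. Markers of other cells moved too: with age 10 of 12 blood endothelial genes, 6 of 10 fibroblast genes and 8 of 9 mesothelial genes were higher in AKO, and 2, 9 and 3 of them in WT, where 6 of 12 adipocyte genes were lower with age. Their part in the members' age differences was not tested. Of 15 tested monocyte and dendritic cell genes 4 were lower in old AKO than in old WT, and with age 1 was higher and 3 lower in AKO, and 4 were higher and 1 lower in WT. In old AKO against old WT 1 of 6 tested T and NK cell genes, 0 of 6 B and plasma cell genes, 1 of 3 neutrophil genes, 0 of 7 mast cell genes and 0 of 4 erythroid genes were lower by edgeR, and 0 were higher.

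Among 12637 genes with a mean of at least 1 CPM, those whose levels over the 12 libraries were most like the mean of the standardised members were F13a1 (Pearson r = 0.991), Cmah (0.986), Cbr2 (0.980), Rcn3 (0.979), Wfdc17 (0.978), Pla1a (0.978), Tec (0.978) and Scara3 (0.977). These r contain the differences between the groups. Over deviations from the group means the most alike were Zfp647 (0.936), Cmah (0.923), Pde6d (0.921), Thap11 (0.907), Cbx8 (0.896), Akirin2 (0.876), Polr3k (0.872) and Ccne1 (0.860). Only Cmah, an enzyme of sialic acid synthesis, was in both sets of 8. Both sets are the highest of 12637 r over 12 libraries, so high values can arise among unrelated genes, and no p was computed.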

How the data were processed

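RNA was measured in 12 poly-A libraries of epididymal adipocytes, 3 per group. Mouse build mm10 and the tools Bowtie2, StringTie (version 1.3.4d), HISAT and HISAT2 (version 2.1.0) are named, without their roles, per the submitters' processing notes. The authors deposited a table of estimated counts and FPKM per transcript. Its 36779 transcripts were summed to 24541 symbols here. Of these 15068 passed edgeR's filterByExpr, all 10 members among them.

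Tests were edgeR 4.0.16 quasi-likelihood fits over all genes and all 12 libraries with TMM scaling, 1 mean per group and Benjamini-Hochberg adjustment over all genes within each of 5 comparisons, checked on simulated data. The same fit was repeated with library offsets set by 16 general macrophage genes, without the error of that reference. Fold changes in the text are on the log2 scale, with standard errors. Residual degrees of freedom were 8 and the biological coefficient of variation 24.7%. Alternatives were DESeq2 1.42.0, limma-voom, limma-trend on log2(FPKM + 1) and (FPKM + 0.1), RLE scaling, no filter, the replicate number as a block, the compared groups alone, and leaving out libraries. Each is listed with its effect in the closing section.

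The members and all gene lists were chosen with earlier results of these data known. All 10 members are named, and from other lists up to 4 genes with the smallest p in a comparison. Ccl21a and Prox1, 2 defining lymphatic markers outside this rule, and the examples that introduce a list were chosen after their values were seen. No 2 libraries of a group were duplicates (chi-square per degree of freedom at least 47.0). Same-numbered libraries did not deviate together (r from -0.214 to 0.0902 over 18 pairs), so numbers were not taken as pairs. Sequences are RefSeq's (GRCm38.p6), shared words come from GENCODE transcripts, and intervals cover the spread between libraries only.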

Additional observations from a re-analysis of the deposited data

How the results depend on the processing

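Direction held in most alternatives. Over 1040 refits of the members' 50 fold changes, 968 kept direction and call, 54 lost a call, 3 gained one and 15 changed sign, and for the same values relative to the general macrophage genes 832 of 890 kept both. The cause of each change was not tested.

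Members called in old AKO against old WT were 7, with 1 when only these groups were fitted and 0 to 7 when single libraries were left out. The fits with 0 each lacked an old AKO library and called 0.013% to 0.0459% of all genes lower. With the replicate number as a block 0 members were called (adjusted p of 0.0554 to 0.0605 for the 7 genes, with 0.0465% of all genes lower). Same-numbered libraries did not deviate together (r from -0.214 to 0.0902). The sample titles do not say what the numbers stand for. The block changed no other unscaled member call. DESeq2 called 3 in young AKO against young WT, all lower, as were 6.25% of all genes. In old AKO against young AKO 5 to 10 were called with 1 library left out, the 5 in fits that called 3.69% and 3.98% of all genes higher.

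Relative to the general macrophage genes, old AKO against old WT had 2 calls by DESeq2 and 6 by limma-voom, all higher, in fits that called 85.1% and 90.0% of all genes higher. It had 0 under the replicate block, 0 with only the groups compared and 0 to 8 with 1 library left out, the 8 in a fit that called 89.6% of all genes higher. In old AKO against young AKO it was 6 with only the groups compared (4.19% of all genes higher), 4 without old WT replicate 3 and young WT replicate 1 (4.05%), and 0 to 4 with 1 library left out (3.45% where it was 4). In old WT against young WT it was 5 without those libraries (1.66% of all genes higher) and 0 to 3 with 1 left out (0.680% where it was 3).

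All changes of sign concerned values without a call. With single libraries left out, Cd209d in young AKO against young WT ranged from -0.76 to 0.25, and it was 0.24 without old WT replicate 3 and young WT replicate 1. The difference of genotype effects ranged from -0.76 to 0.33 for Cd209a, -0.47 to 0.010 for Cd209f, -0.45 to 0.02 for Cd209g and -0.31 to 0.28 for Timd4. Relative to the general macrophage genes, young AKO against young WT ranged from -0.34 to 0.66 for Cd209a, -0.0070 to 0.93 for Cd209d, -0.19 to 0.12 for Cd209f, -0.15 to 0.25 for Cd209g, -0.12 to 0.013 for Mrc1 and -0.21 to 0.55 for Timd4. For Cd209f it was 0.017 by limma-voom and 0.12 without both libraries. Cd163 in old AKO against young AKO ranged from -0.19 to 0.053, and Timd4 in old WT against young WT from -0.59 to 0.19. Without both libraries, Timd4 (0.12) and Lyve1 (0.032) in old WT against young WT, and the differences of genotype effects of Cd209d (-0.45) and Folr2 (-0.23), changed sign.

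Counts over all genes moved more: 897 for old AKO against old WT became 1905 by DESeq2, 512 without both libraries, 205 with only the groups compared and 12 under the block, and 4 to 1037 with 1 library left out. For young AKO against young WT 147 became 4 to 1365, for old AKO against young AKO 2766 became 732 to 4100, for old WT against young WT 3451 became 1058 to 4610 and for the difference of genotype effects 1 became 0 to 57. Cd209a, Cd209d and Timd4 had under 2 CPM in most young libraries, which limits their precision there.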
